A study of Homo sapiens with 12 samples.

Results

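The 40 genes described here encode proteins that carry cells from G1 into S phase and copy the genome: the replicative helicase, the factors that load and start it, the sliding clamp and its loader, polymerases, nucleotide-making enzymes, cyclins E, E2F factors and chromatin proteins of the fork. They were taken from a list of gene names, which was chosen with earlier results of these data known. Each was read from the probe set with the highest mean level among those that the array annotation assigns to 1 symbol. All 40 were measured, of 18239 genes with such a probe set, and all 40 passed the level filter (3 arrays or more at a log2 level of at least 5), which left 15173 genes to test.

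RNA was measured on 12 Affymetrix arrays from the human multiple myeloma lines labelled ARP1, JJN3 and RPMI-8226, with 1 array for each line and each of 4 groups at 6 h. Control cells received none of the drugs that the labels name. CPI203, which blocks the acetyl-lysine pocket of BET bromodomain proteins, was given at 0.01 µM. The group called LenDex received lenalidomide at 5 µM, which directs the ubiquitin ligase substrate receptor cereblon to degrade Ikaros-family factors, with the glucocorticoid dexamethasone at 0.05 µM, and the group called Combo received all 3 agents. LenDex always held both agents, so neither can be read alone, and the 6 h of the CPI203 group comes from the treatment protocol. The question posed by the design is what the BET inhibitor does alone and on top of LenDex.

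Replication is prepared in G1, when ORC, CDC6 and CDT1 load the MCM2-7 helicase onto origins, and begins in S phase, when CDC45 and the GINS complex turn that ring into an active helicase. PCNA, placed on DNA by replication factor C, then holds the polymerases to the template. Transcription of many of these genes is driven by E2F factors at the G1/S boundary, cyclin E kinase activity feeds that step, and in myeloma MYC and cyclin D genes are well-known inputs to it.

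The arrays labelled JJN3 and RPMI-8226 resembled each other. The correlation over the genes tested was 0.963 to 0.981 between them and 0.867 to 0.887 between either and ARP1. The B-cell gene MS4A1 stood at 11.48 to 12.06 on their arrays and at 4.59 to 5.33 on those of ARP1, while the plasma cell gene SDC1 stood at 4.96 to 5.79 and at 11.78 to 12.26. PRDM1, the plasma cell regulator, stood at 4.84 to 5.97 and at 10.96 to 11.55. XBP1 and MZB1 were above 10 on all 12 arrays but were also higher in ARP1. XBP1 stood at 10.27 to 10.66 on the JJN3 and RPMI-8226 arrays and at 12.72 to 12.79 on those of ARP1. MZB1 stood at 10.13 to 10.61 and at 11.88 to 12. The B-cell genes CD79A, CD22 and CR2 followed MS4A1, at 9.28 to 11.58 and at 5.22 to 6.21. Not all markers followed: IRF4 stood at 12.37 to 13.31 on the JJN3 and RPMI-8226 arrays and at 11.83 to 12.26 on those of ARP1. The B-cell gene PAX5 lay between 6.87 and 7.41 on all arrays. JJN3 and RPMI-8226 also differed in some markers. HBG1 stood at 13.19 to 13.32 in JJN3 and at 6.77 to 8.53 in RPMI-8226, and KRT18 at 9.07 to 9.32 and at 5.28 to 5.97. The lines are called here by their labels. The JJN3 control array had IGKC, an immunoglobulin light chain gene, at 9.32 against 5.11 to 5.55 on the other JJN3 arrays. The immunoglobulin gene IGHA1 stood at 9.84 against 5.52 to 6.24, and JCHAIN at 9.63 against 7.46 to 7.80. On the ARP1 arrays these genes stood at 12.98 to 14.02. Calls that are lost when these lines are merged or when that array is left out are named with the results of each drug.

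Of 8 plasma cell markers, all measured, none was called with CPI203 and 1 with LenDex. Their summed log2 level lay between 66.2 and 95.2 on arrays without CPI203 and between 62 and 94.6 on arrays with it. The mean sum went from 94.2 to 93.4 in ARP1, from 70.4 to 66.2 in JJN3 and from 66.7 to 62.5 in RPMI-8226. None of the 7 measured B cell or 6 measured erythroid markers was called with either drug, and the erythroid sum went from 44.9 to 40.9 in JJN3. The GAPDH 3' minus 5' difference, a sign of RNA quality, lay between -0.3 and -0.09. The part of these markers in the results below was not tested.

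Values are log2 levels, and a change is a difference of log2 levels, ± SE where a test gave one. Where 4 levels of a line are listed they stand in the order control, CPI203, LenDex and Combo. The average effect of a drug sets the 6 arrays with it against the 6 without it, line by line. A gene was called, and is said to have risen or fallen, at an adjusted p under 0.05 in limma. Line was in the model, and a group had 1 array per line. The error therefore measures how far the lines differ in their changes, mixed with the noise of single arrays. A lower level can mean less RNA per cell or fewer cells in the phase that makes it, which bulk RNA cannot tell apart. Array levels are also relative to the bulk of transcripts.

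The 200 bases before the annotated starts of the 7 members called with CPI203 are shown because E2F and MYC are well-known inputs to these genes. They are written 5' to 3' on the strand of the gene, from RefSeq (GRCh38.p14). Capitals mark letters that match an E2F spelling (TTTCCCGC, TTTCGCGC, TTTGCCGC or TTTGGCGC), the CCAAT box (CCAAT) or the MYC-type E-box (CACGTG), each on either strand.
MCM2 (chr3:127598211-127598410, plus strand): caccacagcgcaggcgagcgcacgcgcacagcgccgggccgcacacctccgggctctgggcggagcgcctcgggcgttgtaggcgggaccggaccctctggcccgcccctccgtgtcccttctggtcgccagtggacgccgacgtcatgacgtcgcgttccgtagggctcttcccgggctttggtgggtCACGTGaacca
GINS1 (chr20:25407473-25407672, plus strand): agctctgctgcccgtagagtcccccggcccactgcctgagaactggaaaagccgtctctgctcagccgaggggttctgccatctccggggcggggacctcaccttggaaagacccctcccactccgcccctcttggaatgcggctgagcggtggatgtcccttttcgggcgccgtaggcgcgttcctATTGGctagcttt
RFC3 (chr13:33817949-33818148, plus strand): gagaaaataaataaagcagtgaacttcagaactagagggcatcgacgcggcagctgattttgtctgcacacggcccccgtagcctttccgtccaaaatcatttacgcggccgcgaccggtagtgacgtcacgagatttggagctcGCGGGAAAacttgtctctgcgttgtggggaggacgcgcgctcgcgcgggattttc
POLE2 (chr14:49688215-49688414, minus strand): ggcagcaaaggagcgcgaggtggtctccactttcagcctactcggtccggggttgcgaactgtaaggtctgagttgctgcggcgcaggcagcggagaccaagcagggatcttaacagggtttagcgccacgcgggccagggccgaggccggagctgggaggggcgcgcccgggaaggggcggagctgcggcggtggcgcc
E2F1 (chr20:33686386-33686585, minus strand): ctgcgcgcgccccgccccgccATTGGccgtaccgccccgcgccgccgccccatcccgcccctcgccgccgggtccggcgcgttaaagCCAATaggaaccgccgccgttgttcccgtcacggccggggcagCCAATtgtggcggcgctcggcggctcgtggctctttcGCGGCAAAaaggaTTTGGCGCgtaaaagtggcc
CDC6 (chr17:40287679-40287878, plus strand): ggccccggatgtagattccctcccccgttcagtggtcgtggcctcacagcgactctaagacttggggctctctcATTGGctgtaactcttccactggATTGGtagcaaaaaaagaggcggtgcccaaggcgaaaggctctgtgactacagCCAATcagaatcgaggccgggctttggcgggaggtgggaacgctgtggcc
RRM2 (chr2:10122539-10122738, plus strand): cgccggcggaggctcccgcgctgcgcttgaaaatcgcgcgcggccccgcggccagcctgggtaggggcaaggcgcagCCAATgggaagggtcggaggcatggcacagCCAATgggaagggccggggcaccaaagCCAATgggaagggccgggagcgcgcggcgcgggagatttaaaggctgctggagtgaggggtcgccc
The RFC3 stretch has 1 E2F spelling, 48 bases before the start. That of E2F1 has 2, which lie 26 and 13 bases before it, and 3 CCAAT boxes. RRM2 and CDC6 each have 3 CCAAT boxes, GINS1 has 1, MCM2 has 1 E-box, and POLE2 has no match in this window. The CDC6 stretch also holds tttggcgg, which differs from the spelling TTTGGCGC in its last letter and is not marked. No spelling overlaps another in these stretches.

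Promoter entries were matched for 36 of the 40 members. An E2F spelling was found in 15 of the 36 (41.7%), against 633 of 27305 promoters (2.32%). A CCAAT box was found in 19 (52.8%), against 28.9% of all promoters, and the E-box in 4 (11.1%), against 5.62%. In the CPI203 average effect 12 of the 15 members with an E2F spelling lay below 0, with a median of -0.19, and 12 of the 21 without one did, with a median of -0.11. These are descriptions of letters in a window, and a match is not evidence of binding. A near match, as in CDC6, was counted as no E2F spelling, so its absence is not evidence that a site is lacking.

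On average over the 3 lines, CPI203 lowered the RNA of part of the replication genes and raised that of a few. MCM2, GINS1, RFC3, POLE2 and E2F1 fell, by 1.27-fold to 1.49-fold, while RRM2 rose 1.37-fold and CDC6 1.2-fold. Thus 7 of the 40 members (17.5%) were called, against 7.28% of all genes tested. The genes tested include many near the level filter. With only genes at a mean log2 level of 6 or more in the fit, 10 members were called (25%, against 19.3% of all genes). By direction, 5 members fell (12.5%, against 3.99%) and 2 rose (5%, against 3.3%). The median change was -0.14 over the members and -0.00 over all genes, and 27 of 40 members (67.5%) lay below 0, against 50.722% of all genes. In ARP1 alone the median over the members was 0.01, and 19 of 40 lay below 0.

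**Figure D1:**
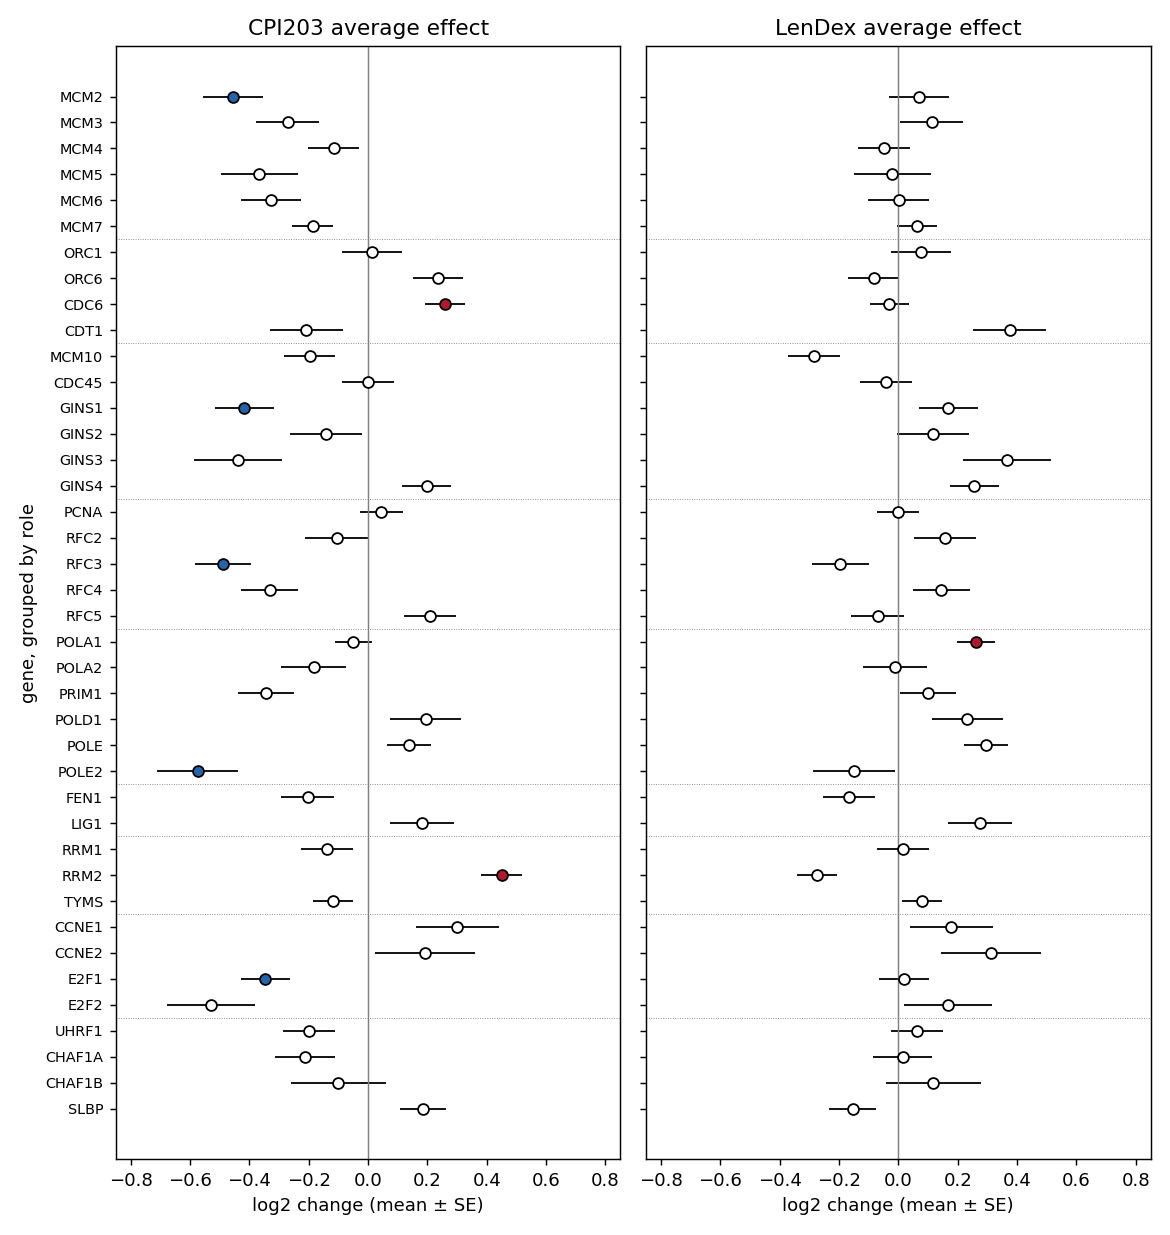
Average effect of CPI203 (left) and of LenDex (right) on each of the 40 genes, grouped by role, as log2 change (points) with its SE (bars); filled points are genes called at an adjusted p under 0.05. With CPI203 all 6 MCM2-7 genes lie left of 0 and 7 points are filled, and with LenDex 1 is.

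All 6 subunits of the MCM2-7 helicase lay below 0, with a median of -0.30, but MCM2 was the member of the ring that was called. MCM2 stood at 10.75, 10.57, 10.76 and 10.70 on the ARP1 arrays with control, CPI203, LenDex and Combo. In the same order it stood at 10.30, 9.75, 10.56 and 9.76 in JJN3 and at 10.98, 10.41, 10.99 and 10.40 in RPMI-8226. In each line both arrays with CPI203 lay below both without it, by little in ARP1 (mean difference -0.11) and by more in JJN3 (-0.67) and RPMI-8226 (-0.58). The change was -0.46 ± 0.10 (adjusted p = 0.0303), and the 4 probe sets of MCM2 gave -0.54 to -0.36.

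The other subunits gave -0.37 ± 0.13 for MCM5, -0.33 ± 0.10 for MCM6, -0.27 ± 0.11 for MCM3, -0.19 ± 0.07 for MCM7 and -0.12 ± 0.09 for MCM4, with adjusted p from 0.0826 to 0.481. MCM5 stood at 9.42, 9.23, 9.17 and 9.27 in ARP1, at 8.21, 7.92, 8.70 and 7.89 in JJN3, and at 9.45, 8.68, 9.0 and 8.78 in RPMI-8226. The arrays with and without CPI203 overlapped in ARP1, and were apart in the other lines.

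Of the licensing factors that load the ring 1 rose and the others were not called. CDC6, the loader ATPase, stood at 10.35, 10.57, 10.16 and 10.48 in ARP1, at 9.22, 9.51, 9.29 and 9.52 in JJN3, and at 9.81, 9.89, 9.65 and 10.07 in RPMI-8226. Both arrays with CPI203 lay above both without it in every line, and the lines moved by like amounts (0.27, 0.26 and 0.25). It rose by 0.26 ± 0.07 (adjusted p = 0.0473), although its second, dimmer probe set gave 0.01. ORC6, a subunit of the origin recognition complex, gave 0.24 ± 0.09 (adjusted p = 0.123), and ORC1 gave 0.01 ± 0.10.

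CDT1, which brings the MCM ring to origins and is itself destroyed in S phase, was not called. It stood at 9.39, 9.47, 9.45 and 9.48 in ARP1, at 9.55, 8.93, 9.84 and 9.87 in JJN3, and at 9.97, 9.38, 10.24 and 10.06 in RPMI-8226. In JJN3 and RPMI-8226 the array with CPI203 alone was the lowest, while the Combo array lay above control. The CPI203 average effect was -0.21 ± 0.12 (adjusted p = 0.346), and its interaction with LenDex was 0.34 ± 0.25 (adjusted p = 0.9997), so neither passed. The 2 other probe sets of CDT1 gave 0.10 and 0.12 with CPI203, with the opposite sign, and the median over its probe sets gave 0.15.

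Among the genes that activate the helicase GINS1 fell. It stood at 9.61, 9.52, 9.82 and 9.70 in ARP1, at 9.92, 9.33, 10.16 and 9.68 in JJN3, and at 10.70, 10.10, 10.72 and 10.10 in RPMI-8226. Its arrays with and without CPI203 overlapped in ARP1 and were apart in JJN3 and RPMI-8226, and the change was -0.42 ± 0.10 (adjusted p = 0.0373). The GINS complex has 4 subunits of which 3 lay below 0: GINS3 gave -0.44 ± 0.15 (adjusted p = 0.104) and GINS2 -0.14 ± 0.12, whereas GINS4 gave 0.20 ± 0.08 (adjusted p = 0.179).

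CDC45, the helicase partner of GINS, had the smallest change of all members, 0.00 ± 0.09. It stood at 9.36, 9.56, 9.54 and 9.59 in ARP1, at 8.75, 9.03, 9.09 and 8.68 in JJN3, and at 8.99, 8.98, 8.82 and 8.71 in RPMI-8226, with no common order of the groups. MCM10, which helps the ring to open, gave -0.20 ± 0.09 (adjusted p = 0.201), and its arrays are given with the combination below.

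RFC3, a subunit of the clamp loader, had the smallest p of the members that fell. It stood at 10.36, 10.15, 10.25 and 10.03 in ARP1, at 10.45, 9.99, 10.31 and 9.80 in JJN3, and at 10.87, 10.20, 10.66 and 9.80 in RPMI-8226. Both arrays with CPI203 lay below both without it in each line, with mean differences of -0.21, -0.49 and -0.76. The change was -0.49 ± 0.09 (adjusted p = 0.0223). Its second probe set gave -0.39, whereas the third, at a mean level of 5.53, gave 0.45, and the median over its probe sets changed by 0.03 (adjusted p = 0.884).

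RFC4 of the same loader gave -0.33 ± 0.10 (adjusted p = 0.0669), RFC2 -0.11 ± 0.10 and RFC5 0.21 ± 0.09. PCNA, the clamp itself, stood at 11.67, 11.86, 11.67 and 11.75 in ARP1, at 12.57, 12.62, 12.72 and 12.78 in JJN3, and at 12.88, 12.81, 12.77 and 12.72 in RPMI-8226. Both arrays with CPI203 lay above both without it in ARP1, and the arrays overlapped in the other lines, with a change of 0.04 ± 0.07.

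POLE2, the second subunit of the leading-strand polymerase epsilon, had the largest change of the 40. It stood at 8.62, 8.33, 8.22 and 7.92 in ARP1, at 6.97, 6.24, 7.18 and 6.65 in JJN3, and at 8.09, 7.13, 7.59 and 6.95 in RPMI-8226. In JJN3 and RPMI-8226 both arrays with CPI203 were lower than both without it, and in ARP1 the LenDex array lay below the CPI203 array. The fall was -0.57 ± 0.14 (1.49-fold, adjusted p = 0.0378). The catalytic subunit POLE gave 0.14 ± 0.07, with the opposite sign. PRIM1, the primase that starts each strand, gave -0.34 ± 0.09 (adjusted p = 0.0564), and POLA1, POLA2 and POLD1 gave -0.05, -0.18 and 0.19.

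Of the nucleotide enzymes RRM2 rose. It encodes the small subunit of ribonucleotide reductase, which makes deoxynucleotides and peaks in S phase. RRM2 stood at 12.14, 12.47, 11.89 and 12.22 in ARP1, at 10.48, 11.16, 10.35 and 10.66 in JJN3, and at 11.27, 11.97, 11.19 and 11.52 in RPMI-8226. In every line the CPI203 array was the highest, followed by Combo, control and LenDex. The change was 0.45 ± 0.07 (adjusted p = 0.0143), and its second probe set rose by 0.50.

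The large subunit RRM1 gave -0.14 ± 0.09. TYMS, the thymidylate synthase, stood at 12.27, 12.27, 12.26 and 12.21 in ARP1, at 12.15, 12.04, 12.34 and 12.16 in JJN3, and at 12.61, 12.40, 12.72 and 12.55 in RPMI-8226, a change of -0.12 ± 0.07 (adjusted p = 0.318). The lagging-strand enzymes parted in sign, with -0.20 ± 0.09 for the flap nuclease FEN1 and 0.18 ± 0.11 for the ligase LIG1.

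Of the G1/S regulators E2F1 fell, and E2F2 and the cyclins E were not called. E2F1, an activator of S-phase genes, stood at 6.86, 6.74, 6.89 and 6.49 in ARP1, at 6.78, 6.48, 6.80 and 6.59 in JJN3, and at 7.44, 6.76, 7.38 and 7.01 in RPMI-8226. Both arrays with the drug lay below both without it in each line, and E2F1 fell by 0.35 ± 0.08 (adjusted p = 0.0396). E2F2 stood at 9.99, 10.01, 9.90 and 9.88 in ARP1, at 7.44, 6.78, 7.86 and 7.11 in JJN3, and at 8.52, 7.69, 8.81 and 7.88 in RPMI-8226. ARP1 hardly differed between groups (-0.01) while JJN3 gave -0.71 and RPMI-8226 -0.88, and the average of -0.53 ± 0.15 did not pass (adjusted p = 0.0591).

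CCNE1 stood at 7.33, 7.50, 6.94 and 7.30 in ARP1, at 7.0, 7.25, 7.54 and 8.06 in JJN3, and at 7.32, 7.52, 7.41 and 7.73 in RPMI-8226. It was higher with CPI203 than without in each line on average, by 0.30 ± 0.14 (adjusted p = 0.225). CCNE2 stood at 7.10, 7.17, 6.82 and 6.92 in ARP1, at 7.50, 8.10, 8.21 and 8.75 in JJN3, and at 8.22, 8.17, 8.78 and 8.66 in RPMI-8226, and gave 0.19 ± 0.17 (adjusted p = 0.561). Neither cyclin was called, and both were highest on the JJN3 Combo array among the JJN3 arrays.

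No chromatin gene of the fork was called. UHRF1, which guides maintenance methylation, stood at 9.66, 9.58, 9.55 and 9.50 in ARP1, at 10.02, 9.72, 10.36 and 10 in JJN3, and at 10.63, 10.39, 10.57 and 10.40 in RPMI-8226 (-0.20 ± 0.09, adjusted p = 0.199). CHAF1A, the large subunit of the chromatin assembly factor CAF-1, stood at 9.92, 9.90, 9.65 and 9.78 in ARP1, at 9.82, 9.36, 9.95 and 9.70 in JJN3, and at 9.96, 9.50, 9.84 and 9.64 in RPMI-8226 (-0.21 ± 0.10, adjusted p = 0.231). Both were lower with the drug in JJN3 and RPMI-8226. SLBP, which binds the stem-loop of histone mRNAs, stood at 10.66, 10.61, 10.23 and 10.47 in ARP1, at 11.16, 11.30, 11.14 and 11.45 in JJN3, and at 11.28, 11.43, 10.96 and 11.28 in RPMI-8226 (0.18 ± 0.08, adjusted p = 0.182).

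**Figure D2:**
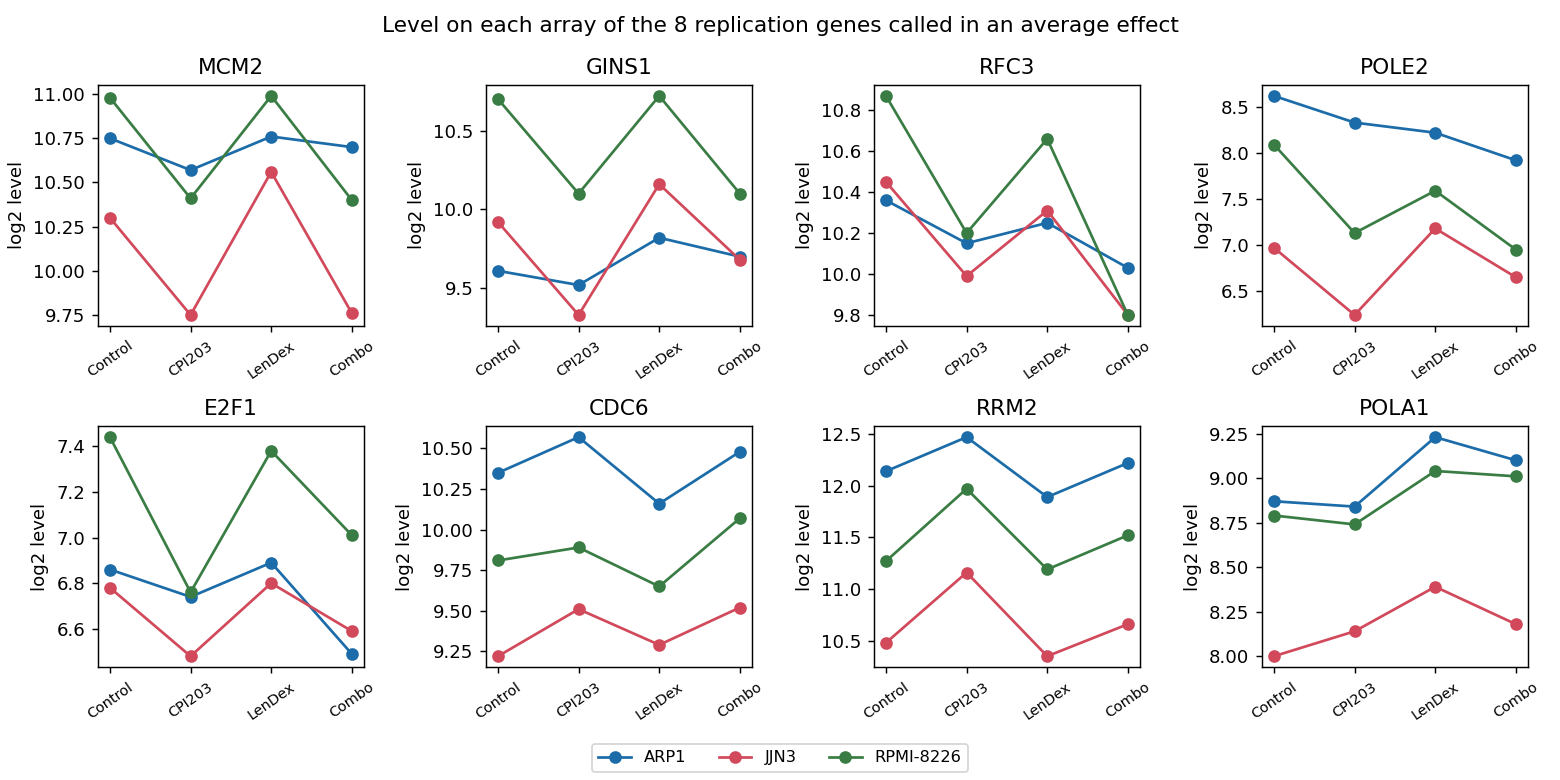
Log2 level (vertical axes, which differ between panels and do not start at 0) on each of the 12 arrays for the 8 genes called in an average effect, with 1 line per cell line over the 4 groups. MCM2 in JJN3 goes from 10.30 with control to 9.75 with CPI203 and 9.76 with Combo, and RRM2 is highest with CPI203 in every line.

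Of the 7 genes called, MCM2, RFC3 and E2F1 lay lower, and CDC6 and RRM2 higher, on both arrays with CPI203 than on both without it in all 3 lines. That makes 3 of 40 lower (7.5%, against 3.14% of all genes) and 2 of 40 higher (5%, against 2.96%). All 6 differences between arrays of a line that differ by CPI203 were downward for 11 members (27.5%, against 8.94%) and upward for 8 (20%, against 7.61%). At an unadjusted p under 0.05 were 16 members lower (40%, against 12.6% of all genes) and 6 higher (15%, against 11.5%). The shares over all genes in this paragraph include many genes near the level filter. They are not given for genes at a mean log2 level of 6 or more, so these excesses may be partly one of level. The calls rest on treating the JJN3 and RPMI-8226 arrays as separate lines: with these averaged, no member was called, and without RPMI-8226 or without JJN3 none was. Without ARP1 15 were called (37.5%, against 15.8% of all genes in that fit), and without the JJN3 control array 1 was, RRM2 (2.5%, against 0.778%).

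Of 62 further genes tested from 3 lists, 1 rose and 5 fell with CPI203 (9.68%, against 7.28% of all genes), with a median of -0.04. ASF1B, a histone chaperone, rose by 0.43 ± 0.09. TIPIN of the fork protection complex (-0.68 ± 0.14), the origin subunit ORC5 (-0.42 ± 0.10), the kinase CDC7, which fires origins (-0.36 ± 0.09), the CTP synthase CTPS1 (-0.39 ± 0.06) and the repressor E2F5 (-0.65 ± 0.12) fell, with adjusted p from 0.0153 to 0.0412. Of the 29 other replication factors 3 fell and none rose. All 6 of these calls were lost with JJN3 and RPMI-8226 averaged, without either line and without the JJN3 control array. With those lines averaged or without either of them, 0% of all genes were called.

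The size of the CPI203 change varied by line. The median change over the 40 members was 0.01, -0.15 and -0.27 in ARP1, JJN3 and RPMI-8226, where the medians of all genes were -0.02, -0.00 and 0.02. In ARP1 19 of 40 members lay below 0, in JJN3 25 and in RPMI-8226 29. The median size of the change was 0.08, 0.26 and 0.33 for the members and 0.12, 0.15 and 0.18 for all genes. ARP1 had the smallest change of the 3 lines in 29 of 40 members (72.5%), against 48.099% of all genes.

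No member passed the test of a difference between lines, against 0.323% of all genes for CPI203. The smallest adjusted p was that of E2F2 (0.0984), followed by CCNE2 (0.159) and GINS3 (0.161), for which ARP1, JJN3 and RPMI-8226 gave -0.05, -0.77 and -0.49. That test had 3 residual degrees of freedom. With a variance trend and robust fit it called 9 members. That count is given without its share over all genes, and is not read as a result about the members. The values by line are given as a description.

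**Figure D3:**
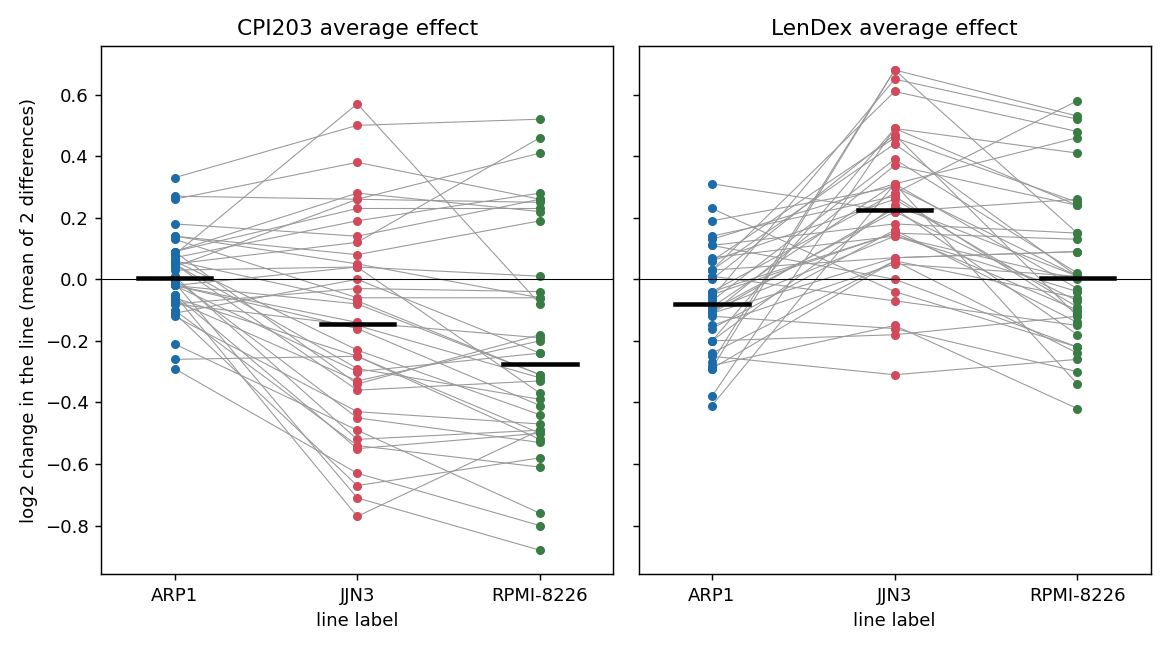
Change of each of the 40 genes in each line with CPI203 (left) and LenDex (right), as the mean of 2 log2 differences; thin lines join a gene and thick bars are medians over the genes. With CPI203 the medians are 0.01, -0.15 and -0.27 from ARP1 to RPMI-8226, and with LenDex -0.08, 0.23 and 0.00.

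With LenDex 1 member rose, POLA1, the catalytic subunit of the polymerase that extends primers, and none fell. Thus 1 of 40 (2.5%) was called against 4.25% of all genes, of which 1.73% were higher and 2.52% lower. The median change was 0.07 over the members and 0.01 over all genes. At an unadjusted p under 0.05 were 6 members higher (15%, against 8.8% of all genes) and 2 lower (5%, against 10.1%).

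POLA1 stood at 8.87, 8.84, 9.23 and 9.10 on the ARP1 arrays with control, CPI203, LenDex and Combo, at 8.0, 8.14, 8.39 and 8.18 in JJN3, and at 8.79, 8.74, 9.04 and 9.01 in RPMI-8226. Both arrays with LenDex lay above both without it in each line, as for no other member (1 of 40, 2.5%, against 2.45% of all genes). The change was 0.26 ± 0.06 (1.2-fold, adjusted p = 0.0491). POLA1 was called in 3 of 11 alternatives, and was lost with JJN3 and RPMI-8226 averaged, without the JJN3 control array and without any 1 line.

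POLE, which has the catalytic activity of the leading strand, gave 0.30 ± 0.07 (adjusted p = 0.0556). RRM2 moved against its direction with CPI203, by -0.27 ± 0.07 (adjusted p = 0.0569), and was lower in all 6 differences between arrays of a line that differ by LenDex. Such agreement was seen for 6 members upward (15%, against 6.31% of all genes) and 4 downward (10%, against 8.28%). CDT1 had the largest change, 0.38 ± 0.12 (adjusted p = 0.125), made up of 0.03, 0.61 and 0.48 in ARP1, JJN3 and RPMI-8226. The smallest were those of PCNA (-0.00 ± 0.07) and MCM6 (0.00 ± 0.10).

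The 6 helicase subunits had a median of 0.03 with LenDex, and none was called. The cyclins E differed in sign between lines. From ARP1 to RPMI-8226 CCNE1 gave -0.29, 0.68 and 0.15, and CCNE2 gave -0.27, 0.68 and 0.53. The test of a line difference gave adjusted p of 0.136 and 0.0805, and it called no member against 0.369% of all genes. In JJN3 7 of the 40 members lay below 0 with LenDex, and the median was 0.23. That line's control array, with IGKC at 9.32, enters 1 of the 2 differences behind each JJN3 change.

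Of the 62 other pathway genes 1 rose and 4 fell with LenDex (8.06%, against 4.25% of all genes). CCND3, a cyclin D that drives G1, rose by 0.95 ± 0.18 (1.93-fold, adjusted p = 0.0212), with the largest difference, 1.49, in ARP1. The repressors E2F5 (-0.78 ± 0.12) and E2F6 (-0.36 ± 0.08), the E2F partner TFDP2 (-0.46 ± 0.09) and CTPS1 (-0.39 ± 0.06) fell. E2F5 and CTPS1 were thus lower with each drug. All 5 calls were lost with JJN3 and RPMI-8226 averaged and without either line, and those of E2F6 and TFDP2 without the JJN3 control array.

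**Figure D4:**
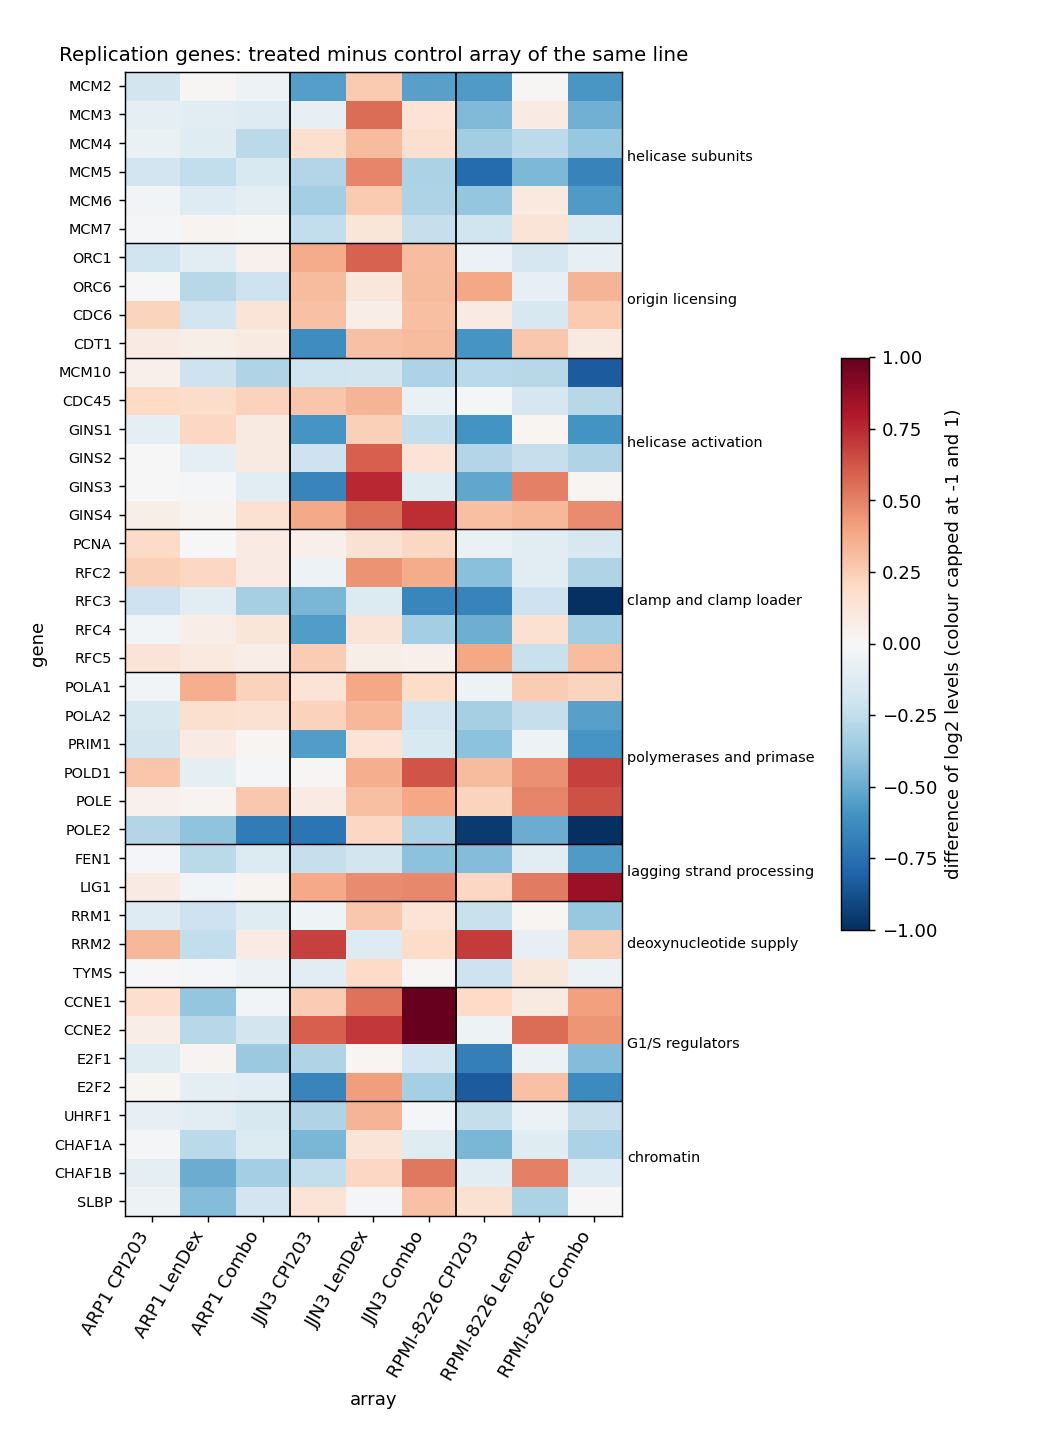
Treated minus control array of the same line for the 40 genes (vertical axis, grouped by role) and the 9 treated arrays (horizontal axis), as differences of log2 levels with the colour capped at -1 and 1. Blue is lower and red higher: RFC3 is at -1.07 on the RPMI-8226 Combo array, and the ARP1 columns are paler than the others.

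Each treatment was also set against control alone, comparisons that share the control arrays. With CPI203 alone no member was called by limma (0.00659% of all genes were), and at an unadjusted p under 0.05 1 member was higher (2.5%, against 6.99% of all genes) and 10 were lower (25%, against 9.19%). RRM2 came nearest, at 0.57 ± 0.10 (adjusted p = 0.0801), then POLE2 at -0.66 ± 0.19 (adjusted p = 0.154). With LenDex alone no member was called by limma (0.461% of all genes were, 0.244% higher and 0.217% lower), and POLA1 gave 0.33 ± 0.09 (adjusted p = 0.138). At an unadjusted p under 0.05 there were 3 higher (7.5%, against 5.91%) and 1 lower (2.5%, against 7.8%).

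With all 3 agents 5 members were called against control (12.5%, against 9.15% of all genes), of which 3 fell (7.5%, against 5.6%) and 2 rose (5%, against 3.55%). With only genes at a mean log2 level of 6 or more in the fit, the members were below the share over all genes (12.5%, against 21.4%). RFC3 (-0.68 ± 0.14, 1.60-fold), POLE2 (-0.72 ± 0.19, 1.65-fold) and MCM10 (-0.48 ± 0.12, 1.40-fold) fell, and POLE (0.44 ± 0.10, 1.35-fold) and GINS4 (0.45 ± 0.12, 1.37-fold) rose, with adjusted p from 0.017 to 0.0461. The median over the members was -0.06, against 0.01 over all genes. POLE and POLE2, the 2 epsilon polymerase subunits among the members, therefore moved in opposite directions.

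MCM10 stood at 9.05, 9.10, 8.84 and 8.75 on the ARP1 arrays with control, CPI203, LenDex and Combo, at 8.04, 7.84, 7.86 and 7.73 in JJN3, and at 8.43, 8.16, 8.15 and 7.60 in RPMI-8226. The Combo array was the lowest of its line in all 3. MCM2, called in the CPI203 average effect, was not called here, nor were RRM2 (0.18) and E2F1 (-0.33 ± 0.12, adjusted p = 0.122). These 5 calls were lost with JJN3 and RPMI-8226 averaged, without either of these lines, without the JJN3 control array and with only the arrays compared in the fit. Without ARP1 12 members were called (30%, against 14.6% of all genes in that fit).

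Adding LenDex to CPI203 or CPI203 to LenDex gave no call among the members. Combo against CPI203 called none by limma (0.0461% of all genes, 0.0264% higher and 0.0198% lower), and RRM2 led at -0.40 ± 0.10 (adjusted p = 0.182), lower in 3 of 3 lines. At an unadjusted p under 0.05 there were 2 members higher (5%, against 5.43% of all genes) and 2 lower (5%, against 5.5%), close to the shares over all genes. Combo against LenDex called none by limma (0% of all genes), and RFC3 gave -0.53 ± 0.14 (adjusted p = 0.187), lower in 3 of 3 lines. At an unadjusted p under 0.05 there were 3 members higher (7.5%, against 7.68%) and 10 lower (25%, against 7.24%). The interaction, which asks whether the drugs depart from adding on the log2 scale, called none by limma among members (0% of all genes), and 0 members were at an unadjusted p under 0.05, against 2.04% of all genes higher and 1.07% lower.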

How the data were processed

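Per the submitters' processing notes, the authors made the deposited log2 probe set levels with RMA (Affymetrix Expression Console 1.1). That the scale is log2 was read from the values, and whether the 12 arrays were normalised together is not given in the sources used here. RMA sets arrays to a common distribution, so depth has no counterpart and the number of arrays limits the precision.

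Of 49386 probe sets, 45253 had 1 symbol in the platform annotation, 1327 several and 2713 none, and 93 were controls. 45172 were brought up to date through RefSeq gene identifiers. A gene took its single-symbol probe set with the highest mean. For 28 members there were several, and of 54 other probe sets fitted 47 had the same sign with CPI203.

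Genes were fitted in limma 3.58.1 (R 4.3.3) with group and line over 12 arrays (6 residual degrees of freedom), two-sided, with Benjamini-Hochberg adjustment over 15173 genes. Line was the block because same-named arrays come from 1 line, and deviations from group means correlated within lines at 0.82 to 0.94. A moderated F test compared lines. In simulated data with 200 genes changed, the share recovered for the CPI203 average effect was 30.1% at 1.3-fold, 70.4% at 1.5-fold and 93.6% at 2-fold, and for LenDex 31.6%, 61.5% and 92.1%. Nothing in the labels says that arrays came from separate cultures, so p-values measure the spread between these arrays.

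The members, the 3 lists of other pathway genes (64 genes, 62 measured and tested) and the markers were chosen with earlier results of these data known. All members could be named, arrays were given for called members, extremes and a set panel, and other pathway genes were named where called in an average effect. Alternatives covered the level filter, probe set choice, cyclic loess, the variance model, the block, the arrays in the fit, merged lines and left-out lines or arrays.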

Additional observations from a re-analysis of the deposited data

How the results depend on the processing

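Of the changes of single members recomputed under the alternatives, 753 kept direction and side of the threshold, 46 lost a call, 30 gained one, 50 uncalled ones changed sign, and 1 called one reversed: RFC3 with CPI203, at 0.028 with the median over probe sets. The median over the members with CPI203 stayed below 0 in all alternatives, from -0.22 to -0.09. For the CPI203 average effect, 7 members called became 4 with the median over probe sets (10%, against 6.63% of all genes). With a variance trend and robust fit they became 12 (30%, against 11.1%). No member was called with no replicate block (cell line left out of the model) or with JJN3 and RPMI-8226 averaged (0% of all genes in each). Without the JJN3 control array 1 was called (2.5%, against 0.778%). Without 1 line 0 to 15 were called, the 15 without ARP1 (37.5%, against 15.8%) and 0 without JJN3 or without RPMI-8226 (0% of all genes in each). For LenDex, 1 became 0 with no filter on low levels (3.31% of all genes were called). The count became 3 at a mean level of 6 or more (7.5%, against 12%) and 3 with the median over probe sets (7.5%, against 4.61%). Cyclic loess gave 2 (5%, against 4.28%) and the variance trend 2 (5%, against 6.78%). None was called with no replicate block (0.00659% of all genes), with those lines averaged (0.0264%) or without the JJN3 control array (1.56%). Without 1 line 0 to 4 were called, the 4 without ARP1 (10%, against 6.05%). None was called without JJN3 (0.0132% of all genes) or without RPMI-8226 (0.033%). For Combo against control, 5 became 0 with no replicate block (0.0198% of all genes), with those lines averaged (0.0198%) and without the JJN3 control array (1.98%). The count was also 0 with only the arrays compared. Without 1 line 0 to 12 were called, the 12 without ARP1 (30%, against 14.6%). None was called without JJN3 (0% of all genes) or without RPMI-8226 (0.0132%). The variance trend gave 1 for CPI203 against control, 1 for Combo against CPI203, 9 for the line difference with CPI203 and 4 with LenDex, where a mean level of 6 or more gave 1. Without 1 line these were 0 to 6 for CPI203 against control, 0 to 1 for Combo against CPI203 and 0 to 5 for Combo against LenDex. The counts for these comparisons and for the line differences stand without their shares over all genes. They are not read as results about the members. Where 1 line is left out fewer arrays are fitted, and otherwise the cause was not tested.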
